A study of Mus musculus with 18 samples.

Results

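Mouse embryonic fibroblasts with intact Nfat5 (WT) were compared between hypertonic and isotonic medium, on the 6 of 18 arrays whose titles read WT 500 or WT 300 and name no further agent. These are 3 hypertonic WT arrays and 3 isotonic WT arrays, and each trio carries the numbers 1, 2 and 4. Other arrays of the series hold WT cells that had 100 nM Torin1, an inhibitor of the kinase mTOR, for 1 h before either medium (hypertonic and isotonic WT with Torin1), and cells without Nfat5 (KO) in hypertonic or isotonic medium, 3 arrays in each of those 4 groups. All cells are of strain 129sv/ev, and the genotype labels read NFAT5 wild-type 5.4 and NFAT5 knock-out 5.1, so that 1 WT and 1 KO line stand for their genotypes. The titles give 500 and 300 with no unit, and neither the agent that raised the tonicity nor the time in the medium was found in the labels. Whether the 3 arrays of a group are separate cultures is not stated, and the p-values below reflect the spread among arrays, which may be technical. Levels are log2 signals of 1 probe set per gene, and they cannot be set against those of another gene. Changes are hypertonic minus isotonic, on the log2 scale, ± standard error. A gene was called, and is said below to have risen or fallen, at a Benjamini-Hochberg adjusted p below 0.05 over 15711 genes in limma. The samples are bulk RNA, in which fewer cells of a type and less RNA per cell cannot be told apart.

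Hypertonic medium draws water out of cells, which shrink and then concentrate ions. Cells regain volume by ion uptake and later replace ions with organic osmolytes such as myo-inositol, betaine, taurine and sorbitol, which do not disturb proteins. NFAT5 is the transcription factor that turns on the transporters and enzymes for this exchange, together with chaperones of the heat shock family. In renal medulla, where tonicity is always high, this program is needed for cells to survive.

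The RNA was checked against cell type markers. Fibroblast genes were high on all 6 arrays, with Col1a1 at 13.12, 13.06 and 12.19 in hypertonic WT arrays 1, 2 and 4, against 13.22, 13.18 and 12.62 in isotonic WT arrays, and Vim, an intermediate filament of mesenchymal cells, at 13.92, 13.96 and 13.98 against 13.97, 13.96 and 13.91. Lum, a proteoglycan of fibroblasts, lay at 4.39, 4.25 and 4.65 against 4.31, 4.34 and 4.38, under the level of 5.86 that a group mean had to pass. None of 14 fibroblast markers was called by limma (0 at an unadjusted p below 0.05). Of the markers of other cell types, 5 of 7 for macrophages, 4 of 5 for endothelium, 5 of 5 for epithelium, 5 of 5 for adipocytes, 4 of 5 for muscle, 4 of 5 for neural cells and 1 of 4 for pluripotent cells passed that level in at least 1 group. Ptprc and Adgre1 of macrophages, Kdr of endothelium, Sox2 of neural cells and Pou5f1 of pluripotent cells did not. Of all these markers 2 rose by their own test, the myeloid integrin gene Itgam (0.83 ± 0.22) and the fatty acid carrier gene Fabp4 (0.83 ± 0.24). The Itgam call was lost without array 1 (0.163) or 2 (0.0841) of hypertonic WT, or array 1 (0.0703), 2 (0.0656) or 4 (0.0937) of isotonic WT, and that of Fabp4 without array 1 (0.0525) or 2 (0.0532) of hypertonic KO, or array 2 (0.0572) of isotonic KO, or array 1 (0.104), 2 (0.0768) or 4 (0.105) of hypertonic WT, or array 1 (0.143) or 2 (0.11) of isotonic WT, or array 1 (0.0528) or 2 (0.054) of isotonic WT Torin1 (limma adjusted p in brackets). The mean level of 5 measured myeloid markers was 7.22 to 7.49 on hypertonic and 6.79 to 7.07 on isotonic WT arrays, and its part in the results below was not tested. Arrays of number 4 stood apart in both media: the proteoglycan gene Dcn was at 7.74, 7.37 and 11.68 in hypertonic WT arrays 1, 2 and 4, against 8.17, 7.27 and 11.66 in isotonic WT arrays. The arrays of number 4 are therefore left out as an alternative below.

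Start regions of 5 genes the results turn on are shown here because each belongs to a family with a known promoter element. They are RefSeq windows of assembly GRCm38.p6, from 250 bases before to 50 after a start, read on the gene's own strand. In each window capitals mark the motifs of its own family alone, and matches to the others stay in lower case. The motifs are, for Slc5a3 and Slc6a12, TGGAAA, the core of the element that NFAT5 binds, for Hspa1a, GAANNTTC, the core that heat shock factors bind, for H1f3, AAACACA and CCAAT, the boxes of linker histone promoters, and for Bnip3, ACGTG, the core that hypoxia-inducible factors bind. Both strands were searched, and over all 32817 windows TGGAAA occurred in 21.4%, GAANNTTC in 7.86%, AAACACA in 7.19%, CCAAT in 37.4% and ACGTG in 19.6%. A match is a description of letters and not a shown binding site.
Slc5a3 (chr16:92058072-92058371, plus strand): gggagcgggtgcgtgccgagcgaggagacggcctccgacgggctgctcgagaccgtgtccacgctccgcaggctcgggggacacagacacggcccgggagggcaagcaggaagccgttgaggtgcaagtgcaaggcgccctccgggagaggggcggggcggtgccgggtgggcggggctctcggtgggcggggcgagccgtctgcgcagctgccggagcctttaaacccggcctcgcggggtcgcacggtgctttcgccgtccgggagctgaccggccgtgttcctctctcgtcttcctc
Slc6a12, the first of 5 windows (chr6:121342324-121342623, plus strand): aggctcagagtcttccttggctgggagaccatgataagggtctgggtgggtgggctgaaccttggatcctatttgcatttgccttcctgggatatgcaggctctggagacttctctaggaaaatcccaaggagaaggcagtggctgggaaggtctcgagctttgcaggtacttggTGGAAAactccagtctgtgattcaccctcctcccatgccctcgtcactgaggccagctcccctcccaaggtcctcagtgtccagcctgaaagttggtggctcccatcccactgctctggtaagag
Hspa1a (chr17:34972107-34972406, minus strand): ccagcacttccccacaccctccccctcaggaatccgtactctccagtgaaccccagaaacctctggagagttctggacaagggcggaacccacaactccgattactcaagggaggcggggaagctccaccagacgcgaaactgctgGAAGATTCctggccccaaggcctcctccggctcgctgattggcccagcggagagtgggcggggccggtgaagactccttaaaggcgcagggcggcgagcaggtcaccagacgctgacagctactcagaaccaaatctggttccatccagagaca
H1f3 (chr13:23554782-23555081, plus strand): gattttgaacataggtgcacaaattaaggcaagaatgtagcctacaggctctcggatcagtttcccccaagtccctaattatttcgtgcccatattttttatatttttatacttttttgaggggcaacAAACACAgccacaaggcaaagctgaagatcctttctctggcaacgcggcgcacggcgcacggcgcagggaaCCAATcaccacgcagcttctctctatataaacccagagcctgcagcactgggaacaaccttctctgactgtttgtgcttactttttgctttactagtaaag
Bnip3 (chr7:138909457-138909756, minus strand): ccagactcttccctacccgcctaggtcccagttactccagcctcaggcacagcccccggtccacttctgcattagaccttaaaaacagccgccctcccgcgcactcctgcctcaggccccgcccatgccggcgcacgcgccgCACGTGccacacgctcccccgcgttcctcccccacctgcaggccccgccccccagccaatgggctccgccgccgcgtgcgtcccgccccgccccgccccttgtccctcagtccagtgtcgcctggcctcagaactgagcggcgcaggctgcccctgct
The TGGAAA of Slc6a12 began at -75 from the gene start in this window, and the other 4 windows of the gene held none, while the GAANNTTC of Hspa1a began at -104, and AAACACA and CCAAT of H1f3 at -122 and -51. In Bnip3 the matches on the minus and plus strand, at -108 and -107, overlap and form CACGTG. The window of Slc5a3 held no TGGAAA, which says only that these letters are not in it. Of the 12 genes with the largest increases, TGGAAA was in a window of 4, GAANNTTC of 0, AAACACA of 2, CCAAT of 7 and ACGTG of 5. Of the 11 genes among the 12 largest decreases that have a window, the counts were 1, 3, 0, 5 and 2 in the same order of motifs. Over all 27025 genes with a window the shares were 23.9%, 9.04%, 8.22%, 41.1% and 21.8%.

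Hypertonic medium changed 1295 of the 15711 genes in WT cells. Of all genes, 3.94% rose (619) and 4.3% fell (676), 80 (0.509%) and 68 (0.433%) of them by at least 2-fold. The median change was 0.57 for genes that rose, -0.62 for genes that fell and 0.02 over all genes. Called changes ran up to 3.78 for U90926 and down to -1.75 for Naaladl2. With the array numbers as a block in limma, 2360 genes were called, 1162 higher and 1198 lower, among them all 1295. Fitted on the 6 WT arrays alone, 267 genes were called (116 higher, 151 lower). Without the arrays of number 4 the count was 3333 (1728 higher, 1605 lower). Leaving out hypertonic WT array 1 or 2 took it to 535 or 635, and leaving out isotonic WT array 1 or 2 to 735 or 783. When each of the 18 arrays was left out in turn, 185 of the genes that rose and 242 of those that fell were called every time. The 3 hypertonic and 3 isotonic arrays did not overlap in 25.3% of all genes and in 1275 of those called. Gene lists below were chosen with earlier results of these data known, so their counts are a description. A list count from another fit has the total of that fit as its background, and not the shares of 3.94% and 4.3%.

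Arrays of the same number were also set against each other. Genes that rose had a median change of 0.69 in number 1, 0.56 in number 2 and 0.46 in number 4, and genes that fell had -0.76, -0.58 and -0.50. Of the 80 genes at least 2-fold higher, 61 had their smallest increase in number 4, against 10 in number 1 and 9 in number 2. Of the 68 at least 2-fold lower, 37 had their smallest decrease in number 4, 11 in number 1 and 20 in number 2. These genes were chosen by the mean over all numbers, so the sizes are a description.

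**Figure D1:**
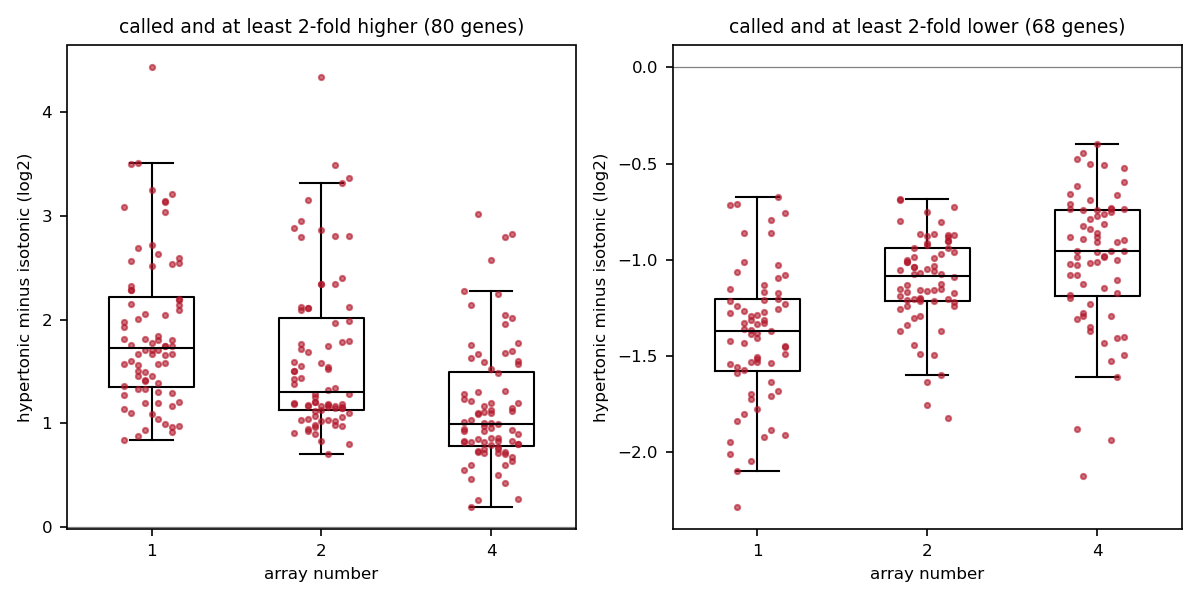
Change of each gene called and at least 2-fold higher (left, 80 genes) or lower (right, 68 genes), as hypertonic minus isotonic WT on the log2 scale, for arrays 1, 2 and 4. Points are genes, and boxes give the median and quartiles, with whiskers to 1.5 interquartile ranges. In 61 of the 80 higher genes the smallest increase is that of number 4.

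Transporter, water channel and chaperone genes of the osmolyte program were among those that rose in WT cells. In the list of osmolyte and NFAT5 target genes 6 of 16 rose and 0 fell, against 3.94% and 4.3% of all genes, and their median change was 0.47, against 0.02. Without the arrays of number 4, 10 rose and 0 fell, where 1728 of all genes rose and 1605 fell. Slc5a3, the transporter for myo-inositol, read 11.76, 11.63 and 10.88 in hypertonic WT arrays 1, 2 and 4, against 8.26, 8.68 and 8.75 in isotonic WT arrays. All hypertonic arrays lay more than 2 log2 units above all isotonic ones, and the change was 2.86 ± 0.29 (limma adjusted p = 0.000103). Slc6a12, the transporter for betaine, read 9.39, 9.04 and 7.00 in hypertonic WT arrays, against 6.71, 6.93 and 6.73 in isotonic WT arrays. Hypertonic array 4 thus lay just above the isotonic arrays while arrays 1 and 2 lay far above them. The change of 1.69 ± 0.44 passed (limma adjusted p = 0.0284), and did not pass without array 1 (0.151) or 2 (0.127) of hypertonic WT, or array 1 (0.0828), 2 (0.0615) or 4 (0.0725) of isotonic WT.

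Among water channel genes of the same list hypertonic array 4 was again the lowest of its group. Aqp5 had levels of 9.16, 8.80 and 8.21 in hypertonic WT arrays, against 7.84, 7.86 and 7.82 in isotonic WT arrays, and rose by 0.88 ± 0.18 (limma adjusted p = 0.00732). Aqp1 had 11.41, 10.79 and 9.28 against 9.19, 8.86 and 8.11, and hypertonic array 4 lay only just above isotonic array 1. Its change of 1.78 ± 0.54 missed the threshold (limma adjusted p = 0.053) and cleared it once array number entered limma as a block (0.0025), as it did without array 4 (0.00837) of hypertonic WT, or array 4 (0.0294) of hypertonic WT Torin1, or array 1 (0.0456) or 4 (0.0429) of isotonic WT Torin1. Pnpla6, an esterase that makes the osmolyte glycerophosphocholine, read 9.88, 9.95 and 9.83 in hypertonic WT arrays, against 9.40, 9.16 and 9.15 in isotonic WT arrays. These groups do not overlap, and Pnpla6 rose by 0.65 ± 0.12. Gdpd5, an enzyme that breaks glycerophosphocholine down, changed by 0.12 ± 0.34 and was not called. The small chaperone gene Cryab rose by 0.37 ± 0.10 (limma adjusted p = 0.0332), a call lost without array 1 (0.142) or 2 (0.082) of hypertonic WT, or array 1 (0.107) or 4 (0.0898) of isotonic WT.

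Further members of the osmolyte list did not pass in either direction. Slc6a6, the taurine transporter, read 12.38, 12.25 and 12.54 in hypertonic WT arrays, against 13.01, 12.73 and 12.81 in isotonic WT arrays, so that all hypertonic arrays were lower. Slc38a2, a carrier of neutral amino acids that takes part in volume recovery in cultured cells, overlapped between the groups, at 12.71, 12.76 and 12.89 against 12.79, 12.95 and 13.10. Their changes of -0.46 ± 0.25 and -0.16 ± 0.14 were not called (limma adjusted p = 0.298 and 0.571). The kinase gene Sgk1 was higher on all 3 hypertonic arrays (10.62, 10.65 and 10.41 against 10.14, 9.94 and 10.14), and its change of 0.48 ± 0.17 was not called (0.0997). Nfat5 itself read 10.77, 10.46 and 10.18 in hypertonic WT arrays, against 10.13, 9.99 and 9.94 in isotonic WT arrays, with no overlap. The change of 0.45 ± 0.16 did not pass (limma adjusted p = 0.106), but it did with array number as a block (0.0154) and without array 4 (0.0353) of hypertonic WT. Akr1b3, which makes sorbitol, has no probe set that names it alone and was not analysed here.

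**Figure D2:**
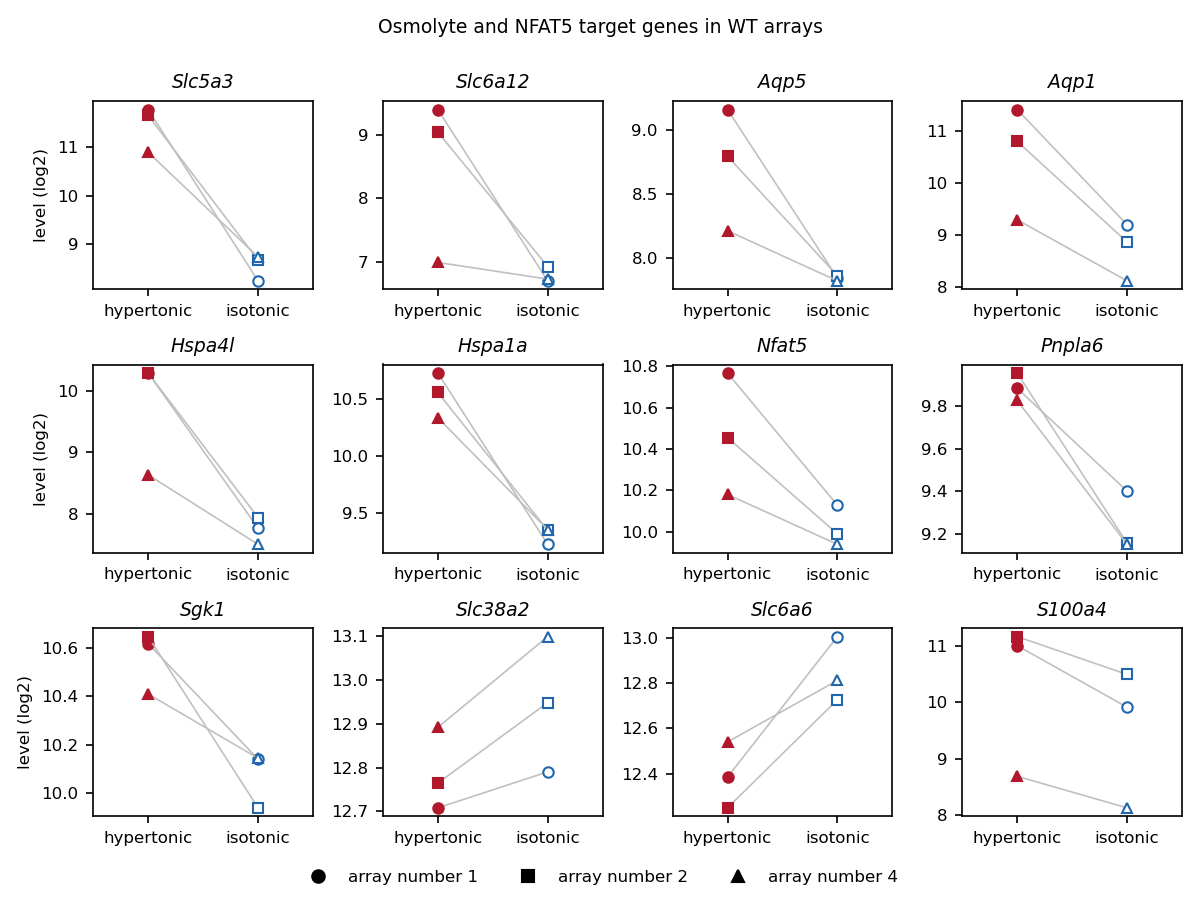
Levels (log2) of 12 osmolyte and NFAT5 target genes in hypertonic (filled, left) and isotonic (open, right) WT arrays, each panel on its own scale. Marker shapes give the array number, and lines join arrays of the same number. In Slc6a12, Aqp5, Aqp1 and Hspa4l hypertonic array 4 is the lowest hypertonic array.

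Among 23 cytosolic heat shock genes 5 rose (21.7%, against 3.94% of all genes) and 0 fell, with a median change of 0.26. The count was 2 without hypertonic WT array 1 or 2 or isotonic WT array 1. It was 9 (8 higher) without the arrays of number 4, where 3333 of all genes were called (1728 higher). Hspa4l, an osmotic stress chaperone of the HSP110 family, read 10.29, 10.29 and 8.63 in hypertonic WT arrays, against 7.76, 7.94 and 7.50 in isotonic WT arrays. It rose by 2.00 ± 0.38 (limma adjusted p = 0.00567). Hspa1a, an inducible HSP70 whose near-identical copy Hspa1b may share its signal, read 10.72, 10.55 and 10.33 against 9.23, 9.35 and 9.36, a gap of about 1 log2 unit between the nearest arrays, and rose by 1.23 ± 0.12 (7.96e-05). The 2 genes differ in how alike the numbers were: hypertonic array 4 was close to the other hypertonic arrays in Hspa1a and well below them in Hspa4l. Chaperones and stress genes of the endoplasmic reticulum gave 1 higher and 1 lower of 23 (4.3% each), near the 3.94% and 4.3% of all genes. The higher one, the HSP40 member Dnajb9, rose by 0.58 ± 0.10. The lower one was the unfolded protein response factor Xbp1 (-0.70 ± 0.18), whose call was lost without array 2 (0.0535) or 4 (0.0653) of hypertonic WT, or array 2 (0.102) or 4 (0.0642) of isotonic WT.

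Linker and core histone genes were among those that rose, with H1f3 among the 12 largest increases. Of 8 measured genes of the histone list 5 rose and 0 fell, against 3.94% and 4.3% of all genes, and the median change was 0.74. A wider list of 25 replication-dependent histone genes, written after the values had been seen, had 8 that rose, 0 that fell, 19 positive changes and a median of 0.15. That median was -0.04, 0.07 or 0.40 without hypertonic WT array 1, 2 or 4, and 0.31 or 0.03 without isotonic WT array 1 or 4. H1f3, a linker histone gene whose start region carries both boxes shown above, read 10.26, 9.60 and 9.43 in hypertonic WT arrays, against 7.23, 7.25 and 6.64 in isotonic WT arrays. The lowest hypertonic array lay more than 2 log2 units above the highest isotonic one, and H1f3 rose by 2.72 ± 0.35 (limma adjusted p = 0.000561). H1f2, another linker histone gene, rose by 1.66 ± 0.29 (0.00354), with 13.05, 12.97 and 13.17 against 11.86, 11.43 and 10.93 and no overlap. The replacement linker histone gene H1f10 rose by 0.82 ± 0.16 (0.00638), and the core histone gene H2bc4 by 1.28 ± 0.18 (0.000846). Median changes of the list of 8 were 0.86, 0.91 and 0.86 in numbers 1, 2 and 4, so it did not have the smaller change in number 4 that most 2-fold genes had. Core histone genes have near-identical copies, among which a probe set may not tell, and DNA replication genes, which act in the same phase of the cell cycle, had no call by limma: 0 of 26 passed, 1 at an unadjusted p below 0.05, and 4 were higher without the arrays of number 4.

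The largest increases were led by U90926, a long non-coding RNA gene. It read 11.26, 11.22 and 9.90 in hypertonic WT arrays, against 6.83, 6.87 and 7.33 in isotonic WT arrays, and rose by 3.78 ± 0.48 (limma adjusted p = 0.000546). Prrg4, which encodes a transmembrane protein with a Gla domain, was next, with 10.06, 10.17 and 9.41 against 6.85, 6.85 and 6.59 and a change of 3.12 ± 0.31 (8.42e-05). Both genes were well above their isotonic levels on every hypertonic array, and array 4 was the lowest of the 3. Arrays that do not overlap were a condition for the 12 largest increases. Prl2c5, a prolactin-related gene with close copies in the genome, rose by 2.89 ± 0.43, and its levels were 8.16, 8.36 and 7.56 in hypertonic WT arrays, against 5.02, 4.87 and 5.51 in isotonic WT arrays. Mrps6, a protein of the small mitochondrial ribosome, rose by 2.64 ± 0.29, with 12.84, 12.68 and 11.68 against 9.70, 9.87 and 9.72. Its interval overlaps that of Slc5a3, and signals of the 2 genes' transcripts were not told apart here. Prxl2a, which encodes a peroxiredoxin-like redox protein, read 11.53, 11.62 and 10.69 in hypertonic WT arrays, against 8.98, 8.26 and 9.49 in isotonic WT arrays, and rose by 2.37 ± 0.44.

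Potassium channel genes were also among the 12 largest. Kcnj16, an inward rectifier, read 8.75, 8.28 and 7.40 in hypertonic WT arrays, against 6.22, 5.88 and 5.39 in isotonic WT arrays, and rose by 2.32 ± 0.38 (limma adjusted p = 0.00252). Kcnj2, the inward rectifier that sets resting potential in muscle, read 10.44, 10.03 and 8.47 against 7.85, 7.22 and 6.90 and rose by 2.32 ± 0.52, a call lost without array 1 (0.0783) or 2 (0.0626) of hypertonic WT. In both genes the highest isotonic array was number 1 and the lowest hypertonic one number 4. Sprr1a, a precursor of the cornified envelope, rose by 2.55 ± 0.72 (limma adjusted p = 0.0406), the receptor gene P2ry10b by 2.46 ± 0.53 and the tyrosine phosphatase gene Ptpn22 by 2.33 ± 0.52. Hypertonic array 4 was far below arrays 1 and 2 in each, at 8.26, 8.23 and 5.79 in hypertonic WT arrays, against 4.75, 5.08 and 5.06 in isotonic WT arrays, for P2ry10b. The call of P2ry10b was lost without array 1 (0.0651) or 2 (0.0595) of hypertonic WT, and the one of Ptpn22 likewise without array 1 (0.0745) or 2 (0.0631) of hypertonic WT. That of Sprr1a was lost without array 1 (0.0526) or 2 (0.0528) of hypertonic KO, or array 1 (0.0506) of isotonic KO, or array 1 (0.162) or 2 (0.162) of hypertonic WT, or array 1 (0.107), 2 (0.0643) or 4 (0.112) of isotonic WT, or array 1 (0.0533) or 2 (0.0509) of isotonic WT Torin1.

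**Figure D3:**
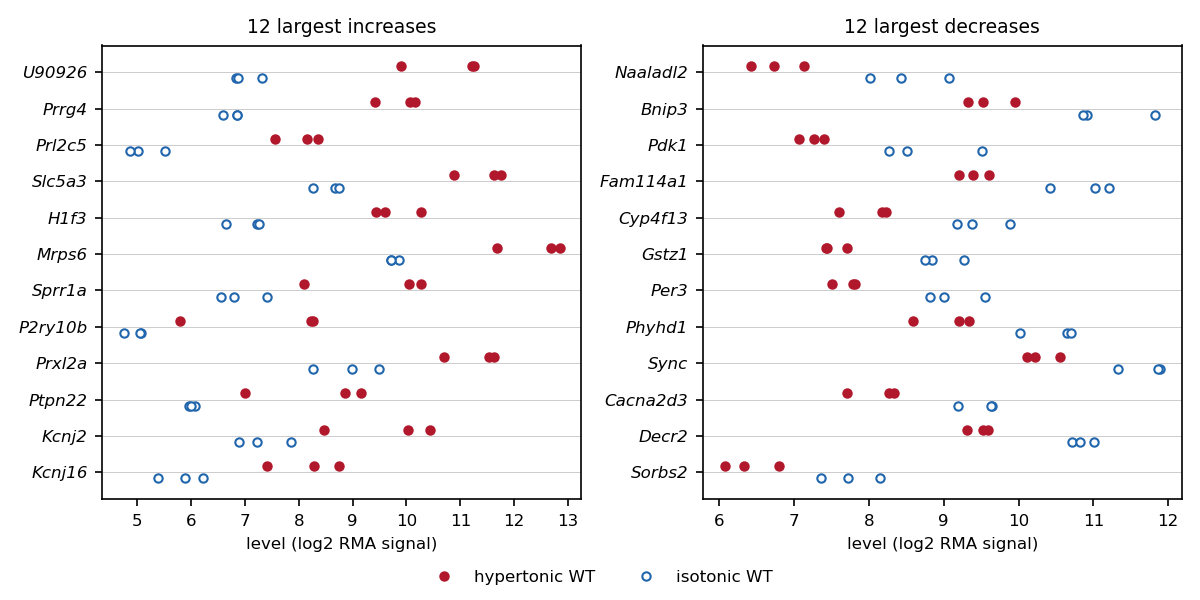
Levels (log2 RMA signal) of the 12 genes with the largest increases (left) and decreases (right) whose arrays do not overlap, with hypertonic WT arrays filled and isotonic WT arrays open. Each row has 3 arrays of either kind, and levels of different genes cannot be compared. U90926 leads the increases with a change of 3.78 and Naaladl2 the decreases with -1.75.

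Genes of the mTORC1 restraint list, which also holds folliculin and its partners, moved both ways. mTORC1 is the kinase complex that drives growth when amino acids are plentiful, and of 20 measured genes that restrain it 3 rose and 2 fell, with a median change of 0.06 (0.03 without isotonic WT array 4). Ddit4l, a relative of REDD1 that inhibits mTORC1, read 9.41, 9.11 and 9.51 in hypertonic WT arrays, against 6.69, 6.76 and 8.32 in isotonic WT arrays, and rose by 2.09 ± 0.42 (limma adjusted p = 0.00758). Deptor, which binds mTOR and inhibits it, rose by 0.98 ± 0.17 (0.00382), and Nprl2, a subunit of the GATOR1 complex that reports lack of amino acids, by 0.82 ± 0.10 (0.000561). Castor1, the arginine sensor, fell, with 8.18, 8.41 and 8.80 against 9.71, 9.57 and 9.19 and a change of -1.03 ± 0.19. The other gene that fell was Fnip1, a folliculin partner (-0.38 ± 0.11), whose call was lost without array 1 (0.0513) of hypertonic KO, or array 1 (0.0813), 2 (0.165) or 4 (0.0501) of hypertonic WT, or array 1 (0.051) or 2 (0.0503) of hypertonic WT Torin1, or array 1 (0.152), 2 (0.0521) or 4 (0.0782) of isotonic WT, or array 2 (0.0528) of isotonic WT Torin1. Ddit4, which encodes REDD1, read 10.81, 9.87 and 9.25 in hypertonic WT arrays, against 8.03, 9.36 and 9.36 in isotonic WT arrays. Its change of 1.06 ± 0.37 was not called (0.0938) and was called without array 4 (0.0252) of hypertonic WT, and Sesn1, a sestrin, changed by -0.10 ± 0.14 (0.754). Of 21 genes for the mTOR complexes and their effectors 1 rose and 1 fell (4.8% each, against 3.94% and 4.3% of all genes). Mapkap1, the mTORC2 subunit SIN1, fell by 0.77 ± 0.15 on the log2 scale. Mlst8, a subunit of both complexes, rose by 0.67 ± 0.17, a call lost without array 1 (0.117) or 2 (0.0847) of hypertonic WT, or array 1 (0.0536) or 4 (0.0857) of isotonic WT.

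Of 22 amino acid transporter genes 2 rose (9.1%, against 3.94% of all genes) and 0 fell, and the median change was 0.38. With the array numbers as a block 6 rose, where 1162 of all genes rose. Without hypertonic WT array 4 the count was 6 (5 higher, 1 lower), against 1 without hypertonic WT array 1. Slc1a3, the glial high-affinity glutamate transporter, read 8.96, 8.49 and 8.48 in hypertonic WT arrays, against 6.86, 6.70 and 6.88 in isotonic WT arrays. The arrays were far apart on every number, and Slc1a3 rose by 1.83 ± 0.14 (limma adjusted p = 1.21e-05). Slc7a6, an exchanger for cationic and neutral amino acids, rose by 0.49 ± 0.10, and its call was lost without array 1 (0.052) of hypertonic WT. Targets of ATF4, the factor that answers amino acid lack, had a median change of 0.21, and 1 of 32 rose (3.1%). The block called 5 of them higher, where it called 1162 of all genes higher. The single call, the cysteinyl-tRNA synthetase gene Cars (0.99 ± 0.28), was lost without array 1 (0.0517) or 2 (0.0536) of hypertonic KO, or array 2 (0.0519) of isotonic KO, or array 1 (0.15) or 2 (0.131) of hypertonic WT, or array 1 (0.0525) of hypertonic WT Torin1, or array 1 (0.168) or 4 (0.116) of isotonic WT, or array 1 (0.0535) of isotonic WT Torin1, and 3 were called without isotonic WT array 2. Medians of the ATF4 list were 0.68, -0.23 and 0.20 in numbers 1, 2 and 4, and 0.32, -0.04 or 0.54 without hypertonic WT array 4, isotonic WT array 1 or isotonic WT array 2, so its direction was not the same throughout.

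Genes of death receptors and of the p53 response rose in part. Of 21 TNF ligand and receptor genes 4 rose and 0 fell, a count of 2 without hypertonic WT array 1 or 2. Tnfrsf22, a decoy receptor for TRAIL in mouse, read 11.92, 11.70 and 10.63 in hypertonic WT arrays, against 9.77, 9.60 and 8.99 in isotonic WT arrays, and rose by 1.96 ± 0.36 (limma adjusted p = 0.00446). Its neighbour in the family, the decoy receptor gene Tnfrsf23, rose by 1.79 ± 0.31 (0.0036). Tnfrsf21, which encodes death receptor 6, rose by 1.23 ± 0.27, a call lost without array 1 (0.0627) or 2 (0.0641) of hypertonic WT. Of 24 p53 target genes 6 rose and 1 fell (25.0% and 4.2%, against 3.94% and 4.3% of all genes). The list's median was 0.24 (0.07 without hypertonic WT array 1 and 0.09 without isotonic WT array 1). The count was 2 without hypertonic WT array 1 and 4 without isotonic WT array 1, with 1 gene lower in either. Mdm2, the ligase that degrades p53, rose by 0.55 ± 0.11 on all numbers, with 10.21, 10.12 and 10.26 against 9.48, 9.65 and 9.81. Gadd45b, a stress sensor, fell, with 10.91, 10.89 and 11.01 in hypertonic WT arrays, against 11.71, 11.73 and 11.40 in isotonic WT arrays, and a change of -0.68 ± 0.14.

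Of 28 immediate early genes 4 rose (14.3%, against 3.94% of all genes) and 0 fell, a count of 1 without hypertonic WT array 1 or isotonic WT array 4 and of 2 without isotonic WT array 2. Without the arrays of number 4, 12 rose, where 1728 of all genes rose. Dusp1, a phosphatase that switches off MAP kinases, read 13.20, 13.20 and 13.05 in hypertonic WT arrays, against 12.21, 11.86 and 11.74 in isotonic WT arrays, and rose by 1.22 ± 0.22 (limma adjusted p = 0.0038). The clock list of 17 genes had 1 rise and 1 fall (5.9% each, against 3.94% and 4.3% of all genes). Arntl, which encodes BMAL1, the activator of the clock, rose by 0.96 ± 0.19 (0.00741), with 9.55, 9.07 and 9.30 against 7.84, 8.70 and 8.50. Per3, one of the period genes that repress BMAL1, read 7.51, 7.79 and 7.81 in hypertonic WT arrays, against 9.55, 9.01 and 8.82 in isotonic WT arrays, and changed by -1.42 ± 0.22 (0.00172). The groups of both genes did not overlap.

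Of 32 HIF-1 target and glycolysis genes 2 rose and 2 fell (6.2% each), against 3.94% and 4.3% of all genes. Bnip3, a HIF-1 target that marks mitochondria for autophagy, read 9.32, 9.52 and 9.95 in hypertonic WT arrays, against 10.91, 10.86 and 11.83 in isotonic WT arrays. Pdk1, a kinase that shuts off pyruvate dehydrogenase, read 7.26, 7.07 and 7.39 against 8.27, 8.51 and 9.52. Isotonic array 4 was the highest array in both genes, and they changed by -1.60 ± 0.33 and -1.53 ± 0.33 (limma adjusted p = 0.00769 and 0.0101). Pfkp, a phosphofructokinase, rose by 1.01 ± 0.17 (0.00325), and so did the regulator gene Pfkfb4 (0.43 ± 0.13), whose call was lost without array 1 (0.0619) of hypertonic KO, or array 1 (0.0543) or 2 (0.0631) of isotonic KO, or array 1 (0.204), 2 (0.0795) or 4 (0.0586) of hypertonic WT, or array 1 (0.06) of hypertonic WT Torin1, or array 1 (0.156), 2 (0.0674) or 4 (0.102) of isotonic WT, or array 1 (0.0596), 2 (0.0597) or 4 (0.0553) of isotonic WT Torin1. Gclc, the catalytic subunit for the limiting step of glutathione synthesis, read 10.87, 10.67 and 10.32 in hypertonic WT arrays, against 9.42, 9.84 and 9.53 in isotonic WT arrays, and rose by 1.03 ± 0.19 (0.00407). It was the 1 call among 21 NRF2 target genes (4.8% of them).

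Sterol genes had a negative median change. Of 21 genes for cholesterol synthesis and uptake 0 rose and 1 fell (4.8%, against 4.3% of all genes). In this list 17 changes were negative and the median was -0.42, against 0.02 over all genes. The median was 0.14 in number 1, -0.53 in number 2 and -0.74 in number 4, and -0.28 over all numbers without hypertonic WT array 4. The block called 5 genes of the list lower, where it called 1198 of all genes lower. The single call was Nsdhl, a sterol dehydrogenase (-1.16 ± 0.30, limma adjusted p = 0.0263), lost without array 1 (0.0541), 2 (0.0643) or 4 (0.065) of hypertonic WT, or array 1 (0.0522), 2 (0.0857) or 4 (0.0628) of isotonic WT, and 2 were called without isotonic KO array 4. Of 16 genes for fatty acid synthesis and desaturation 0 rose and 1 fell (6.2%). It was the desaturase gene Fads1 (-0.50 ± 0.13), a call lost without array 1 (0.0769), 2 (0.0518) or 4 (0.0637) of hypertonic WT, or array 1 (0.105) or 2 (0.0803) of isotonic WT.

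Ribosome biogenesis genes, whose products make and process ribosomal RNA, held calls in 1 direction. Of 36 ribosome biogenesis and RNA polymerase I genes 7 rose (19.4%, against 3.94% of all genes) and 0 fell. In this list 34 changes were positive and the median was 0.45. With the array numbers as a block 22 rose, where 1162 of all genes rose. Without the arrays of number 4, 24 rose, where 1728 of all genes rose. The share of 3.94% is not the background of these 2 counts. Leaving out hypertonic WT array 1, 2 or 4 gave 1, 3 or 15 calls (14 of the 15 higher), isotonic WT array 1 or 4 gave 2 or 4, and hypertonic array 4 of the Torin1 group gave 11. Polr1a, the largest subunit of RNA polymerase I, read 9.96, 9.95 and 9.63 in hypertonic WT arrays, against 9.22, 9.47 and 9.23 in isotonic WT arrays, and rose by 0.54 ± 0.11 (limma adjusted p = 0.00679). Dkc1, the pseudouridine synthase dyskerin, read 10.29, 10.17 and 9.80 against 8.71, 9.47 and 8.94 and rose by 1.05 ± 0.22, a call lost without array 1 (0.0518) of hypertonic WT. Medians of the list were 0.77, 0.31 and 0.35 in numbers 1, 2 and 4. Of 35 cytosolic ribosomal protein genes 0 were called by limma (2 at an unadjusted p below 0.05), and 1 rose without the arrays of number 4.

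Mitosis genes had negative changes with 1 exception. Of 27 mitosis genes 0 rose and 1 fell (3.7%, against 4.3% of all genes). It was the cyclin gene Ccnb2 (-0.52 ± 0.14), and the list's median was -0.33. With the block 4 fell, where 1198 of all genes fell. Without the arrays of number 4, 11 fell, where 1605 of all genes fell. The Ccnb2 call was lost without array 1 (0.148) or 2 (0.0764) of hypertonic WT, or array 1 (0.107) or 2 (0.0896) of isotonic WT, and the count was 2 without isotonic WT array 4 and 4 without isotonic array 4 of the Torin1 group. The DNA replication list had medians of 0.39, -0.11 and -0.57 in numbers 1, 2 and 4, an order that the mitosis list (-0.49, -0.34 and -0.13) did not share. Of 35 lysosome and autophagy genes 1 rose and 2 fell (2.9% and 5.7%, against 3.94% and 4.3% of all genes). Those that fell were Wipi1, which acts in forming autophagosomes (-0.65 ± 0.15), and Atg7, the enzyme that activates ubiquitin-like autophagy proteins (-0.57 ± 0.14). The Wipi1 call was lost without array 1 (0.0596) of isotonic WT, and that of Atg7 without array 1 (0.0946) or 4 (0.0569) of hypertonic WT, or array 1 (0.0999) or 2 (0.0512) of isotonic WT. For the whole list 1 call was left without hypertonic WT array 1 or isotonic WT array 2, 0 calls once isotonic WT array 1 was dropped, while 5 were made when isotonic WT array 4 or array 4 of hypertonic KO cells was dropped. Of 25 FOXO target genes 0 rose and 3 fell, among them Bnip3, and 1 fell without hypertonic WT array 1 or 2 or isotonic WT array 1.

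Of 27 chemokine, interleukin and NF-kB genes 0 rose and 3 fell (11.1%, against 4.3% of all genes), and 6 fell with the array numbers as a block. They were Relb, a subunit of the noncanonical NF-kB pathway (-0.82 ± 0.18), Nfkb2, its partner (-0.55 ± 0.14), and the chemokine gene Cxcl12 (-0.96 ± 0.26). The count was 0 when array 1 of hypertonic WT was dropped, and 1 when its array 2 or any 1 of the isotonic WT arrays was. Of 20 interferon-stimulated genes 0 were called by limma (1 at an unadjusted p below 0.05). Without the arrays of number 4, 7 were called, where 3333 of all genes were called. The list's median in the main fit was -0.27. The sign of that median turned with the array left out: it was 0.23, 0.27 or -1.09 without hypertonic WT array 1, 2 or 4, and -0.70, -0.77 or 0.64 without isotonic WT array 1, 2 or 4. In the actin and SRF list Tpm2, a tropomyosin, read 11.19, 11.09 and 11.24 in hypertonic WT arrays, against 11.65, 11.84 and 11.91 in isotonic WT arrays, and changed by -0.63 ± 0.11 (limma adjusted p = 0.00358). Tpm2 and 1 more of 23 members fell (8.7%, against 4.3% of all genes). That count was 1 with any array left out other than array 4 of hypertonic WT, array 1 of isotonic WT, and arrays 1 and 4 of hypertonic KO cells. Of 32 collagen and matrix genes 0 rose and 1 fell (3.1%), the prolyl hydroxylase gene P4ha3 (-0.65 ± 0.14), lost without array 2 (0.0609) of hypertonic WT, or array 1 (0.0581) of isotonic WT. Of 22 genes of ion transport for cell volume 0 rose and 1 fell (4.5%), the anion channel subunit gene Lrrc8e (-0.41 ± 0.11). That call was lost without array 1 (0.0753) or 2 (0.107) of hypertonic WT, or array 1 (0.0899), 2 (0.0556) or 4 (0.0851) of isotonic WT, and 5 members were called without hypertonic WT array 4.

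**Figure D4:**
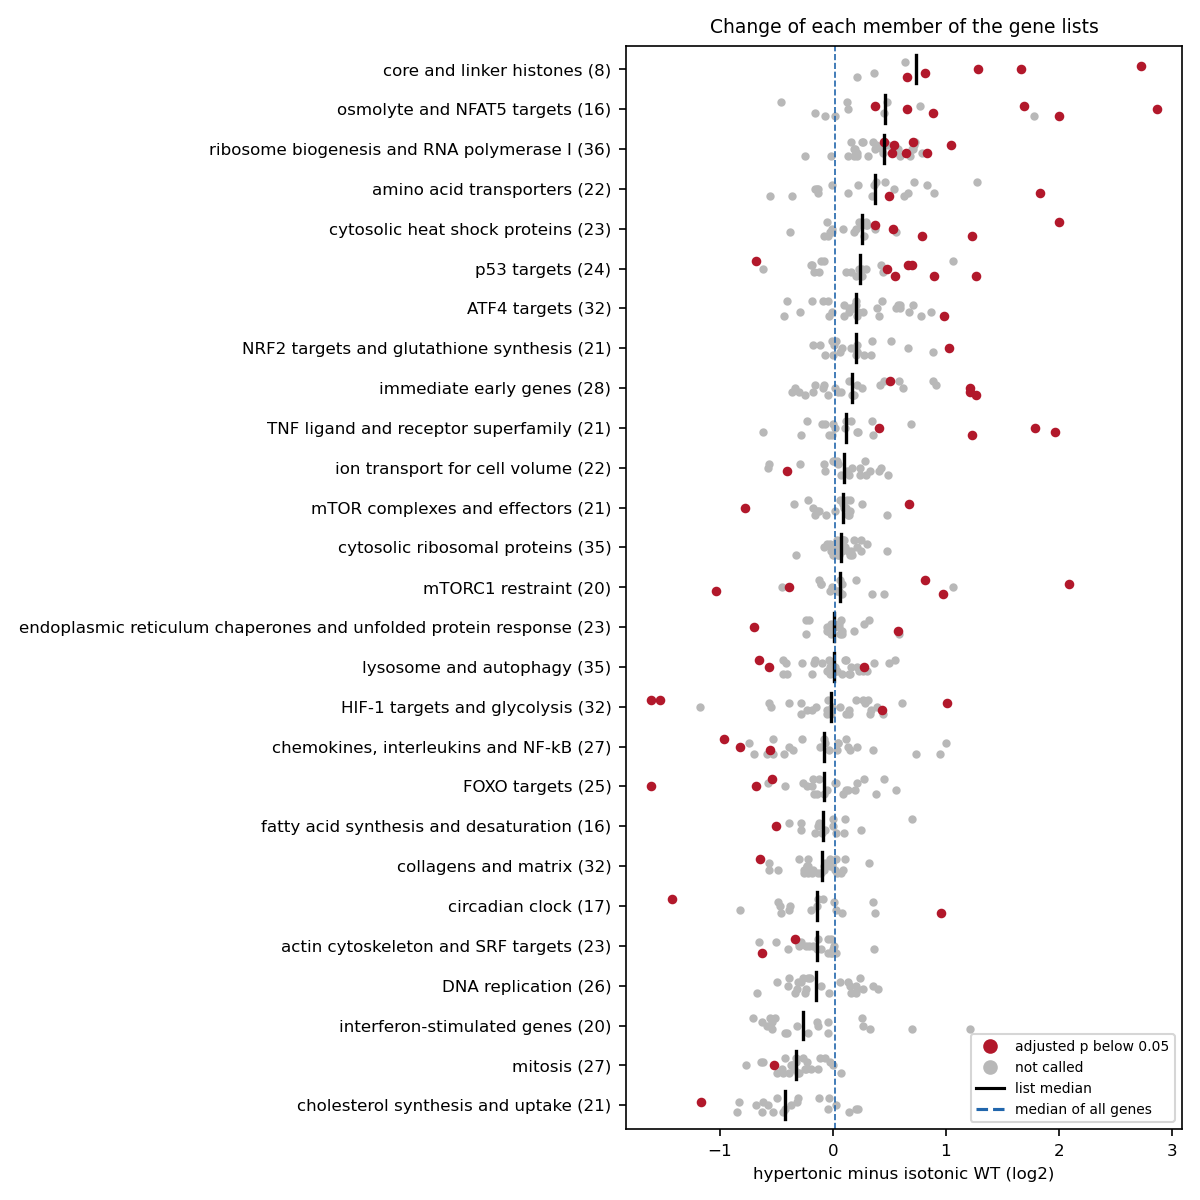
Change (hypertonic minus isotonic WT, log2) of each measured member of the gene lists, with the number tested in brackets. Red points passed an adjusted p below 0.05, grey points did not, black bars are list medians, and the dashed line is the median of all genes. Of the lists drawn, the 8 core and linker histones have the highest median (0.74, against 0.15 in the wider list of 25, which is not drawn) and cholesterol genes the lowest (-0.42).

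The largest decreases were smaller than the largest increases. Naaladl2, named for its likeness to a peptidase, read 6.73, 6.42 and 7.13 in hypertonic WT arrays, against 8.43, 8.02 and 9.07 in isotonic WT arrays, and changed by -1.75 ± 0.36 (limma adjusted p = 0.00822). Fam114a1 read 9.39, 9.21 and 9.60 against 10.42, 11.03 and 11.21 and changed by -1.49 ± 0.21 (0.000826). In both genes every hypertonic array lay below every isotonic one, which the choice of the 12 largest decreases required. Cyp4f13, Gstz1 and Decr2 encode enzymes. Cyp4f13, a cytochrome P450 gene, changed by -1.48 ± 0.21, with 7.60, 8.17 and 8.23 against 9.89, 9.38 and 9.18. Gstz1, an enzyme of tyrosine breakdown, read 7.43, 7.71 and 7.44 in hypertonic WT arrays, against 9.27, 8.84 and 8.74 in isotonic WT arrays, and changed by -1.43 ± 0.16 (0.000209). Decr2, which lets peroxisomes oxidise unsaturated fatty acids, read 9.31, 9.52 and 9.59 against 11.01, 10.72 and 10.82 and changed by -1.38 ± 0.15 (0.000209). These 3 genes had their largest decrease on number 1. Phyhd1, of the phytanoyl-CoA dioxygenase family, changed by -1.41 ± 0.23, and Sync, which encodes the intermediate filament protein syncoilin, by -1.39 ± 0.23. Cacna2d3, an auxiliary subunit of calcium channels, changed by -1.39 ± 0.39, a call lost without array 1 (0.0848) or 2 (0.154) of hypertonic WT, or array 1 (0.113), 2 (0.0591) or 4 (0.102) of isotonic WT. Sorbs2, an adaptor at actin stress fibres, changed by -1.34 ± 0.29, a call lost without array 2 (0.0535) of hypertonic WT.

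The response was next set against that of WT cells given Torin1 beforehand, which asks whether mTOR activity shapes it. Called genes numbered 1295 (8.24%) without Torin1 and 530 (3.37%) with it. Of the genes called without Torin1, 402 were called in the same direction with it, which is 31.0% of the first list and 75.8% of the second, and 1285 of the 1295 had the same sign. The test of the difference between the responses called 0 genes in limma, with 317 (2.02%) at an unadjusted p below 0.05 and 1 called with array weights or without the arrays of number 4. Slc5a3 changed by 2.86 ± 0.29 without Torin1 and 2.15 ± 0.29 with it, a difference of 0.72 ± 0.41 (limma adjusted p = 1). Ddit4l changed by 2.09 ± 0.42 without Torin1 and 0.87 ± 0.42 with it, H1f3 by 2.72 ± 0.35 and 2.03 ± 0.35, and Gstz1 by -1.43 ± 0.16 and -0.53 ± 0.16. For Gstz1 the difference was -0.89 ± 0.22 (1). A p above the threshold does not show that the responses are alike.

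The response was also set against that of the KO line, which asks what depends on Nfat5, with the limit that 1 line stands for either genotype. The 1 probe set for Nfat5, at the WT levels given above, read 10.13, 10.22 and 9.73 in hypertonic KO arrays 1, 2 and 4, against 9.83, 9.72 and 9.73 in isotonic KO arrays. In either medium all but hypertonic KO array 2 lay below all WT arrays of that medium, by less than 1 log2 unit between means. The labels do not say where the deletion lies relative to the probes, so this level is no check of the label KO. Isotonic KO array 1 is KO by its title and wild-type by its genotype label, and it was kept as KO. KO cells had 4734 called genes (30.1%), and of the 1295 genes called in WT cells 765 were called in the same direction in KO cells and 43 in the opposite one. The responses differed for 1492 genes (9.5%), 966 (6.15%) with a higher change in WT cells and 526 (3.35%) with a lower one, and for 1033 without isotonic KO array 1. Of the 1492, 64.7% were higher in WT, against 52.1% after quantile normalization and 30.2% after centring each array on its median. Dropping array 2 of hypertonic WT gave 833, and dropping array 2 or 1 of hypertonic KO cells 911 or 994. Among genes that rose in WT cells, 119 had a higher and 33 a lower change than in KO cells, and among those that fell in WT cells 45 had a lower and 37 a higher one. Genes chosen for a change in WT cells favour a larger change there, so these counts are a description.

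Slc5a3 differed most among the genes called in WT cells. In KO cells it read 10.19, 10.34 and 9.43 on hypertonic arrays 1, 2 and 4, against 11.67, 11.75 and 11.09 on isotonic arrays, so that hypertonic KO levels were the lower ones and isotonic KO levels were near those of hypertonic WT cells. Its change was 2.86 ± 0.29 in WT cells and -1.52 ± 0.29 in KO cells, a difference of 4.38 ± 0.41 (limma adjusted p = 5.67e-05). U90926 changed by 3.78 ± 0.48 in WT cells and 0.34 ± 0.48 in KO cells (3.44 ± 0.67, 0.00561), and Prrg4 by 3.12 ± 0.31 and 0.57 ± 0.31 (2.54 ± 0.43, 0.0026). Mrps6, Prxl2a, Kcnj16 and Kcnj2 rose in WT cells by 2.64, 2.37, 2.32 and 2.32 and had changes of -0.41, -0.52, -0.10 and -0.46 in KO cells. Tnfrsf22 and Slc1a3 rose in WT cells and had negative changes in KO cells, with differences of 2.94 ± 0.51 (0.00283) and 2.35 ± 0.20 (3.07e-05). The linker histone gene H1f3 changed by 2.72 ± 0.35 in WT cells and 0.28 ± 0.35 in KO cells (2.44 ± 0.50, 0.00695), and Hspa1a by 1.23 ± 0.12 and 0.40 ± 0.12 (0.83 ± 0.17, 0.00641). Hspa1a does not stand for its list: of 23 cytosolic heat shock genes 5 rose in WT cells (median 0.26) and 9 in KO cells (median 0.29). In KO cells 30.1% of all genes were called. The change was higher in WT than in KO cells for 2 of the 23 and lower for 1. Other genes had changes of opposite sign in the lines. Nuak2, an AMPK-related kinase, changed by -0.98 ± 0.20 in WT cells and 1.01 ± 0.20 in KO cells, the transcription factor gene Tfcp2l1 by -0.81 ± 0.11 and 0.78 ± 0.11, the growth factor gene Bmp2 by -1.02 ± 0.19 and 0.23 ± 0.19, and the palmitoyltransferase gene Zdhhc15 by -1.03 ± 0.17 and 0.22 ± 0.17. Gclc had the larger change in KO cells, 1.03 ± 0.19 in WT cells and 1.99 ± 0.19 in KO cells (-0.96 ± 0.26, 0.0308). The difference in Gclc was not called without array 2 (0.0815) of hypertonic KO, or array 2 (0.0618) or 4 (0.0704) of hypertonic WT, or array 2 (0.08) of isotonic WT, and that in Kcnj2 (2.79 ± 0.74) was not called without array 1 (0.0677) or 2 (0.0757) of hypertonic KO, or array 4 (0.0585) of isotonic KO, or array 1 (0.0592) or 2 (0.076) of hypertonic WT, or array 2 (0.0578) or 4 (0.0628) of isotonic WT. Prl2c5, Per3, Decr2 and Gstz1 had differences of 0.62, -0.11, -0.11 and -0.04, none of them called.

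**Figure D5:**
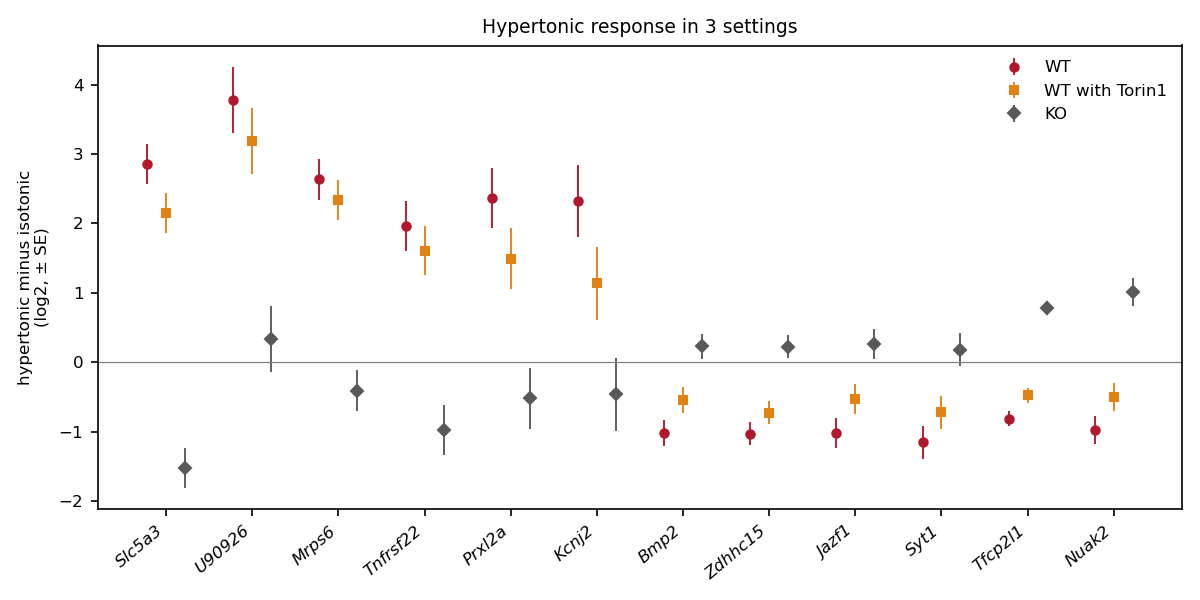
Change in hypertonic medium (hypertonic minus isotonic, log2, ± SE) for WT cells, for WT cells with Torin1 and for KO cells, in the 6 called genes whose WT change exceeds the KO change most and the 6 with the opposite difference. Slc5a3 has 2.86 in WT cells, 2.15 under Torin1 and -1.52 in KO cells.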

How the data were processed

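RNA of 18 samples was labelled with an Affymetrix sense target kit and read on mouse gene arrays, per the labels' protocols. RMA turned them into the deposited log2 signals, which the authors made in R 2.11.1 (per the submitters' processing notes) and which were taken unchanged. How RMA was set and the genome build are not given in the sources used here. RMA as usually run includes quantile normalization, which would hide a shift shared by all genes.

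Of 34760 probe sets 21640 name 1 gene. Each of 19937 genes was read on its probe set with the highest mean, and 15711 whose highest group mean exceeded the 30th percentile (5.86) were kept. limma 3.58.1 in R 4.3.3 fitted 1 mean per group to all 18 arrays (12 residual and 3.29 prior degrees of freedom). It tested 5 contrasts with Benjamini-Hochberg adjustment: the WT response, the same with Torin1, the KO response, and the first minus either. Within WT groups arrays correlated at 0.982 to 0.996, and their number limits the precision. On simulated data for the WT contrast with 15711 genes, limma recovered 88 of 100 changes of size 1 log2 and 99 of 100 of size 2, with 11 of 198 calls false. The simulated arrays had independent noise and no effect of array number, so these rates need not hold for the real arrays.

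The comparison, the 27 gene lists and 8 marker lists were chosen with earlier results of these data known. The genes named are the 12 largest called increases and decreases with arrays that do not overlap, without gene models, small RNAs and multi-copy receptor families. To these come called members of lists, up to 6 others of largest change per list, a short set fixed by name (such as Nfat5, Slc5a3 and Ddit4), and the 6 largest called differences per direction. After removal of group means, hypertonic and isotonic WT arrays of the same number correlated at 0.361, 0.624 and 0.751 over genes. WT arrays of the same number were therefore set against each other as a description. The main fit, which called 1295 genes, had no term for the number and so did not pair the arrays. Number entered limma only in the fit with the block, which called 2360 genes. The meaning of the numbers remains unknown. Akr1b3, Hspa1b and other list members without a probe set of their own were not analysed here.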

Additional observations from a re-analysis of the deposited data

Results flagged for a closer look

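The test of the difference between lines, WT response minus KO response on the log2 scale, passed in limma for 31 of the genes named here. The difference was positive for Slc5a3 (4.38), U90926 (3.44), Mrps6 (3.05), Tnfrsf22 (2.94), Prxl2a (2.89), Ddit4l (2.79), Kcnj2 (2.79), Tnfrsf23 (2.66), Prrg4 (2.54 ± 0.43), Ptpn22 (2.49), H1f3 (2.44), Kcnj16 (2.42) and Slc1a3 (2.35). It was also positive for H1f10 (1.64), H3c4 (1.69), Ttc30a1 (1.52), H3c15 (1.29), Hspa1a (0.83), Sesn1 (0.78), Pnpla6 (0.71), Slc7a6 (0.60) and Cryab (0.51). It was negative for Nuak2 (-1.99), Tfcp2l1 (-1.59), Zdhhc15 (-1.25), Bmp2 (-1.24), Gadd45b (-1.13), Fnip1 (-1.03), Gclc (-0.96), Dnajb9 (-0.68) and Mdm2 (-0.65).

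Several of these did not pass with 1 array left out (limma adjusted p in brackets). Kcnj2 did not pass without array 1 (0.0677) or 2 (0.0757) of hypertonic KO, or array 4 (0.0585) of isotonic KO, or array 1 (0.0592) or 2 (0.076) of hypertonic WT, or array 2 (0.0578) or 4 (0.0628) of isotonic WT. Ptpn22 did not pass without array 1 (0.0826), 2 (0.0933) or 4 (0.0569) of hypertonic KO, or array 1 (0.0914), 2 (0.0754) or 4 (0.0679) of isotonic KO, or array 1 (0.094) or 2 (0.117) of hypertonic WT, or array 1 (0.0715), 2 (0.0817) or 4 (0.074) of isotonic WT, or array 1 (0.0563) or 2 (0.0569) of isotonic WT Torin1. H3c4 did not pass without array 1 (0.0635), 2 (0.0964) or 4 (0.0877) of hypertonic KO, or array 1 (0.118), 2 (0.0783) or 4 (0.0585) of isotonic KO, or array 2 (0.111) or 4 (0.0893) of hypertonic WT, or array 1 (0.0575) or 2 (0.0612) of hypertonic WT Torin1, or array 2 (0.0672) or 4 (0.111) of isotonic WT, or array 1 (0.061) of isotonic WT Torin1. Cryab did not pass without array 1 (0.0817) or 4 (0.0644) of hypertonic KO, or array 1 (0.0632) or 2 (0.0881) of isotonic KO, or array 1 (0.0669) or 2 (0.0659) of hypertonic WT, or array 1 (0.0712) or 4 (0.0678) of isotonic WT, and Gclc without array 2 (0.0815) of hypertonic KO, or array 2 (0.0618) or 4 (0.0704) of hypertonic WT, or array 2 (0.08) of isotonic WT. Sesn1, which was not called in WT cells alone, did not pass without array 2 (0.0562) of hypertonic KO, or array 2 (0.0526) of isotonic WT, and Mdm2 did not pass without array 2 (0.0527) of hypertonic WT.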

How the results depend on the processing

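For genes that differed in WT cells, the count of 1295 was 4726 with array weights, whose fit stopped before convergence, 267 with only the groups of the contrast, 2360 with the replicate block and 3333 without the arrays of number 4. It ranged from 535 to 1831 with each array left out. For the difference from the response with Torin1, the count of 0 was 1 with array weights or without the arrays of number 4, and 0 with each array left out. For the difference between WT and KO responses, the count of 1492 was 4241 with array weights, 2280 with the replicate block and 2807 without the arrays of number 4, and it ranged from 833 to 1749 with each array left out. The main fit did not pair arrays by number. In the replicate block the number was a term shared by WT and KO arrays. Between some WT and KO arrays, however, the same number went with a correlation as low as 0.0945. Results with the block therefore assume number effects common to both lines, and the meaning of the numbers remains unknown. The cause of these shifts in the counts was not tested, beyond the fewer arrays of some fits.

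Counts stayed within 1.5 times under no filter, a filter at the 50th percentile, means of probe sets, quantile normalization again, centred arrays, cyclic loess and a trended robust prior. None of the 96 genes named changed direction while called. Of the 84 called, 42 lost the call when only the 6 WT arrays were fitted, and with the block 2 of the other 12 became called and none of the 84 lost its call. Without the arrays of number 4, members called were 10 of 22 amino acid transporters, 11 of 32 HIF-1 and glycolysis genes, 10 of 24 p53 targets and 8 of 20 mTORC1 restraint genes. Signal over background was not available, so dim genes are limited by the filter alone.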

Other observations

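Further groups, written down after the values had been seen, held more members that fell than rose. They are given as a description only. The 27 lists above were themselves chosen with earlier results of these data known. Of 38 measured genes for fatty acid oxidation in mitochondria and peroxisomes 11 fell and 1 rose in WT cells (limma, adjusted p below 0.05 over all genes), against 4.3% and 3.94% of all genes. The median change was -0.18, against 0.02 over all genes, and -0.28 without hypertonic or without isotonic WT array 4. The count of falls was 7 without hypertonic WT array 1 and 16 without its array 4, and the 1 rise was lost when hypertonic WT array 2 or isotonic WT array 1 was dropped. Decr1, the mitochondrial 2,4-dienoyl-CoA reductase, read 8.67, 8.80 and 8.92 in hypertonic WT arrays 1, 2 and 4, against 9.99, 9.84 and 10.05 in isotonic WT arrays, and changed by -1.16 ± 0.14. Echdc2, of the enoyl-CoA hydratase family, changed by -1.13 ± 0.16, and Echs1, the short-chain hydratase of the same pathway, by -0.54 ± 0.11. The list's medians were -0.46, -0.21 and -0.12 in numbers 1, 2 and 4. The falls were not particular to WT cells: in KO cells, where 30.1% of all genes were called, 26 of the 38 fell and 0 rose, with a median of -0.57.

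Of 23 genes for breakdown of branched-chain amino acids and propionate 7 fell (30.4%, against 4.3% of all genes) and 0 rose. The count was 3 without hypertonic WT array 1, hypertonic WT array 2, isotonic WT array 2 or isotonic WT array 4. In KO cells, where 30.1% of all genes were called in either direction, 15 of the 23 fell and 0 rose. Aldh6a1, which acts in valine breakdown, changed by -1.11 ± 0.19, and Mcee, the methylmalonyl-CoA epimerase, by -0.59 ± 0.11. Of 28 intraflagellar transport genes, which carry cargo along cilia, 5 fell (17.9%) and 1 rose (3.6%) in WT cells. The count of falls was 3 once array 1 or 2 of hypertonic WT or array 1 of isotonic WT was dropped, and 9 once array 4 of hypertonic WT was. In KO cells, again with 30.1% of all genes called in either direction, 17 of the 28 fell and 1 rose. Hspb11, also known as IFT25, read 7.35, 7.40 and 7.34 in hypertonic WT arrays, against 8.61, 8.62 and 8.48 in isotonic WT arrays, and changed by -1.21 ± 0.12 (limma adjusted p = 7.96e-05). Ift43 changed by -1.08 ± 0.13, while Ttc30a1, another subunit, rose by 0.69 ± 0.14.

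Among the 25 replication-dependent histone genes H3c4 rose by 2.20 ± 0.36 and H3c15 by 1.20 ± 0.20, with the limit that near-identical copies may share a signal.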
